A study of Rattus norvegicus with 7 samples.

Results

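Cytochrome P450 genes were examined in the brain of rats bred for high or low alcohol drinking. The set holds every gene whose symbol is Cyp followed by a number and a letter and whose RefSeq transcript a probe of the array names, without Cyp2e1. It comprises 50 genes, measured by 61 of the 33849 transcript probes, among 6046 genes that could be named and 102 P450 symbols of this form in the RefSeq table. Where several probes named a gene, the one with the highest mean signal stood for it. Among brain P450 genes known from textbooks, Cyp46a1, Cyp7b1, Cyp39a1, Cyp2u1, Cyp2s1 and Cyp4x1 had no named probe and were not measured. Biotin-labelled RNA of the whole brain was hybridised, 1 array per rat. The rats were adult males of the alcohol-preferring (P) and alcohol non-preferring (NP) lines, both selectively bred from Wistar stock, naive to alcohol and housed in pairs. There were 4 P rats (P 1 to P 4) and 3 NP rats (NP 2 to NP 4), since the submitters left out an NP array in quality control. By RefSeq 17 of the 50 genes lie on chromosome 1, 10 on chromosome 7 and 7 on chromosome 5. The labels do not say whether rats of a line were littermates, and a whole brain mixes all of its regions and cell types.

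P450 enzymes are heme proteins that insert an oxygen atom into lipids, hormones and foreign compounds. Most draw electrons from NADPH through cytochrome P450 reductase (Por) in the endoplasmic reticulum, and those of mitochondria through ferredoxin (Fdx1) and its reductase (Fdxr). Families 1 to 3 are best known from drug and toxicant oxidation in liver and family 4 from fatty acid hydroxylation, while the other families make or break down steroids, bile acids, vitamin D and retinoic acid. In brain the enzymes act on neurosteroids, cholesterol, retinoic acid and arachidonic acid.

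Signal for many P450 genes lay close to the background of the array. The scanner flags each spot, and a signal without a near-background or an outlier flag is called above background here. By that rule 32 of the 50 genes (64%) were above background on all 7 arrays, against 76.7% of all named genes and 64.3% of all transcript probes. The genes Cyp2c13 and Cyp4f1 were above background on no array. By rat, 41, 43 and 41 of the 50 genes were above background in NP 2, NP 3 and NP 4, and 44, 42, 38 and 38 in P 1 to P 4. P 3 and P 4 had the lowest counts, and P 1 the highest. The share averaged 81% ± 6 over the P rats (SD, n = 4) and 83.3% ± 2.3 over the NP rats (SD, n = 3), and the difference did not exceed the spread between rats (two-sided exact permutation test, p = 0.629, smallest possible p 0.0286). Over all transcript probes the shares were 79.4% ± 1.6 in P and 83.5% ± 2.3 in NP (p = 0.0857 in the same exact permutation test).

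The flag is a lenient limit. On average over the rats, 30 of the 50 genes lay within 1 log2 unit of the median of the negative control spots. That median was 6.19 to 6.33 in log2 after background correction. Control spots did not enter the quantile normalization, so the distance to the normalized gene values is approximate. With the 95th percentile of the negative controls as the limit, 20 genes were above it on all arrays and 19 on none, and the share per rat was then higher in P by 6 percentage points instead of lower. Cyp2c11, Cyp2c12, Cyp2d1, Cyp2a3, Cyp7a1 and Cyp24a1, most of them best known from liver or kidney, were above background on 3 to 5 arrays each. The 6 genes above background on fewer than 3 arrays, Cyp11a1, Cyp1a2, Cyp2c13, Cyp3a2, Cyp4f1 and Cyp8b1, were not tested between the lines.

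**Figure D1:**
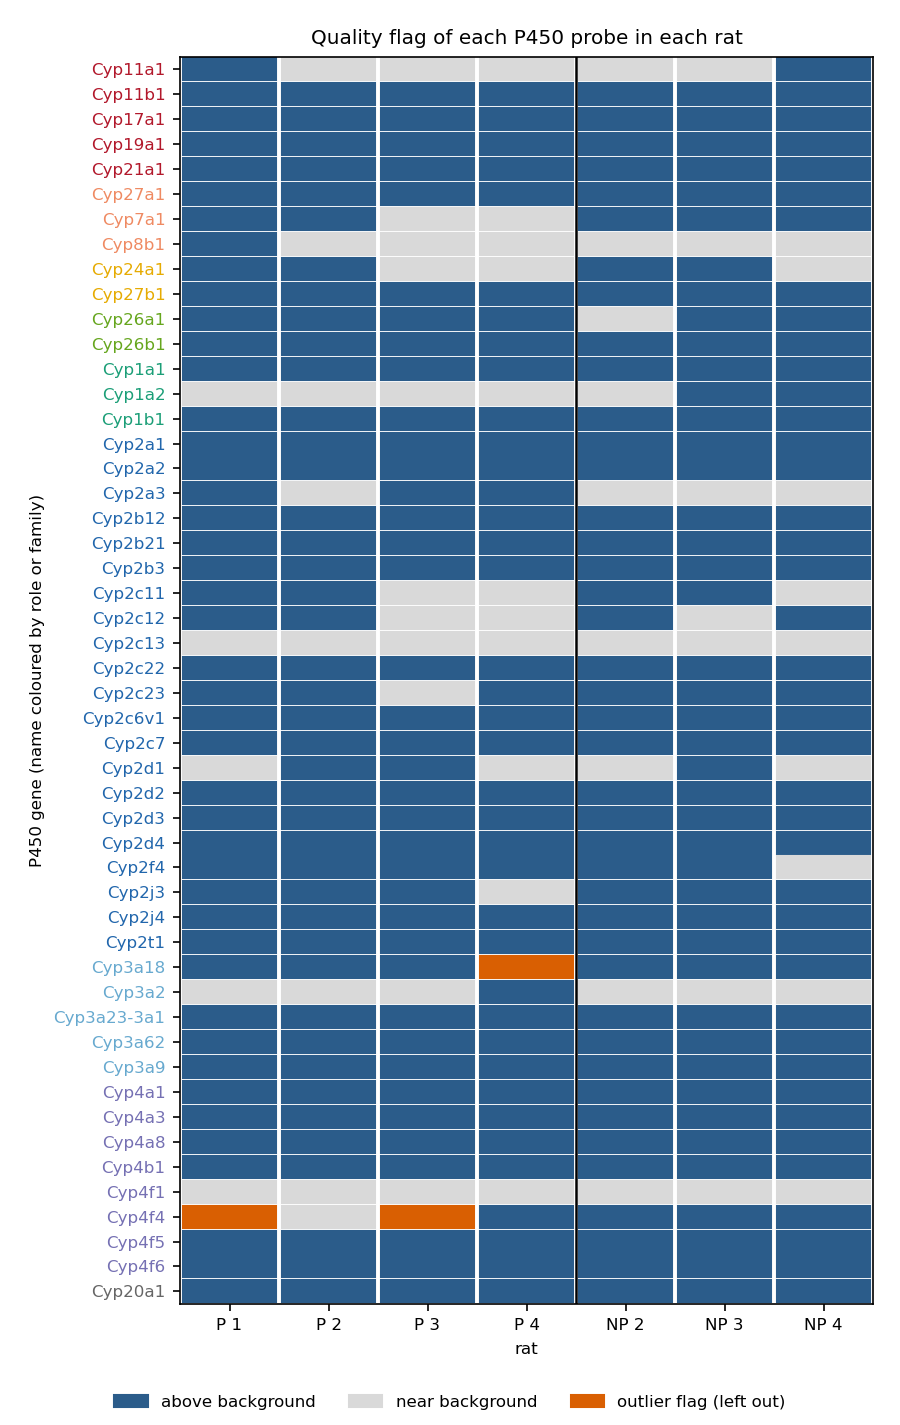
Quality flag of the probe of each of the 50 P450 genes (rows) on the array of each of the 7 rats (columns). Blue cells are above background, grey cells near background and orange cells carry an outlier flag and were left out, and 32 rows are blue throughout.

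The comparison of the lines asks which P450 transcripts differ in brain before any alcohol exposure. No P450 gene passed the test: 0 of the 44 genes above background on at least 3 arrays were called at an adjusted p under 0.05 (limma, all tested probes adjusted together), where 0.29% of all tested probes were. At an unadjusted p under 0.05, 4 of the 44 (9.09%) were found by the same limma fit, against 11.5% of all tested probes. All 4 were higher in P, Cyp2c22, Cyp1a1, Cyp26a1 and Cyp4f6, and 5.7% of all tested probes had such a p and were higher in P. With so few genes, neither share is read as differing from its background. The values of the lines did not overlap for 6 of the 42 genes with all 7 values (14.3%), against 13.3% of all such probes.

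The estimates leaned to P without reaching a call. Of the 44 genes 30 had the higher mean in P and 14 in NP, and 51.4% of all tested probes had the higher mean in P. The median difference was 0.12 on the log2 scale, against 0.01 over all tested probes, and single genes ranged from -0.15 to 0.45. Leaving out rats moved this lean: 24 of the 44 had the higher mean in P when only P 3 and P 4 stood for the P line, and 38 of 44 when only P 1 and P 2 did. With the background correction used here (normexp with offset 50, which draws faint signals together), the 95% interval of each of the 44 genes excluded a 2-fold difference in either direction. That does not hold without the offset: with plain background subtraction and with the authors' values the intervals of 12 of the 44 genes reached 2-fold, Cyp1a1, Cyp26a1, Cyp2f4, Cyp4f6, Cyp2a3 and Cyp27b1 among them, and none of the 44 was called. On simulated data of this size the test with offset 50 recovered 77.6% of changes of 1 log2 unit and 10.4% of changes of 0.5, so that small differences would mostly be missed.

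**Figure D2:**
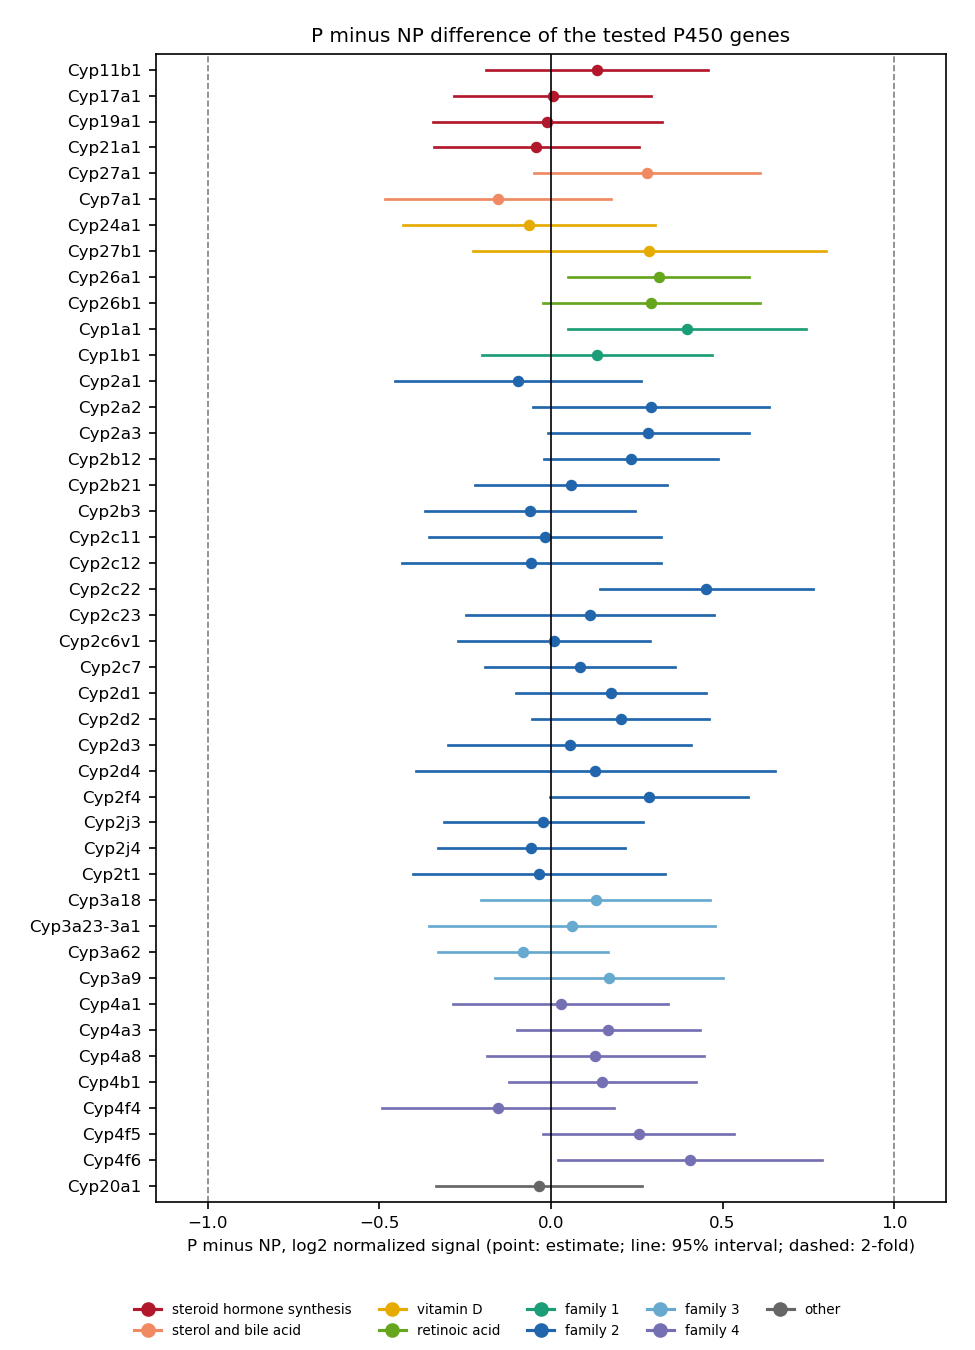
P minus NP difference of each of the 44 tested P450 genes on the log2 scale (points) with its 95% interval (lines), coloured by role or family. Values are those with normexp offset 50, where all intervals lie inside the dashed lines of a 2-fold difference (with plain background subtraction 12 would reach them), and those of Cyp2c22, Cyp1a1, Cyp26a1 and Cyp4f6 lie above 0.

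Upstream sequence is shown for 3 genes on which the results below turn: Cyp2c22 had the smallest p between the lines, Cyp2d4 differed among the P rats, and Cyp26a1 had non-overlapping values and is a known target of retinoic acid. RefSeq promoter entries of build GRCr8 matched 40 of the 50 genes, and the 250 bases before the transcription start were searched on both strands. Capitals mark AGGTCA, a half-site of nuclear receptors, in Cyp2c22 (chr1:248980768-248981017, minus strand), GGGCGG, the GC box, in Cyp2d4 (chr7:115771822-115772071, minus strand), and both AGTTCANNNNNAGTTCA, a retinoic acid response element, and TATAAA, the TATA box, in Cyp26a1 (chr1:244883572-244883821, plus strand). Each sequence marks only these motifs: Cyp2c22 also holds TATAAA and Cyp26a1 also GGGCGG, left in lower case. The first 3 motifs were found on the strand opposite to the gene and are read here as their reverse complement.
Cyp2c22: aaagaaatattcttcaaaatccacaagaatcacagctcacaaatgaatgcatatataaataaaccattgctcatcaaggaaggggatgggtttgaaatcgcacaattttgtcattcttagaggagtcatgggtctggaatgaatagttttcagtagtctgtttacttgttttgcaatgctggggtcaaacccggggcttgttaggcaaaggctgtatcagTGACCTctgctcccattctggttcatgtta
Cyp2d4: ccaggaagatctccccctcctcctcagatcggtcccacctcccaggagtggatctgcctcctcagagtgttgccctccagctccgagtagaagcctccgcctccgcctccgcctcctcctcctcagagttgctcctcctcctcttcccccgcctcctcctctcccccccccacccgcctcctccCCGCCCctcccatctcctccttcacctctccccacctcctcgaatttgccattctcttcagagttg
Cyp26a1: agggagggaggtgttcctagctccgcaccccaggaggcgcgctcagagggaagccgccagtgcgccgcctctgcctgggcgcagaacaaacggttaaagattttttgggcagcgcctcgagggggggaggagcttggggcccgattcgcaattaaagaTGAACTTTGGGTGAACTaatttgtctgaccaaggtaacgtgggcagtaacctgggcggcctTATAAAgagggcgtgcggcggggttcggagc
AGGTCA lay 30 to 25 bases before the start of Cyp2c22 and was held by 12 of the 40 P450 windows (30%) and 14.1% of all 33469 windows. GGGCGG lay 66 to 61 bases before the start of Cyp2d4, and 9 of 40 (22.5%) and 30.5% of all windows held it. The retinoic acid element in this exact spelling lay 92 to 76 bases before the start of Cyp26a1, the only one of the 40 windows to hold it. Of all windows 3 held it. Only the spelling that Cyp26a1 carries was searched, so these counts do not cover elements with other half-sites. TATAAA lay 31 to 26 bases before the same start, and 14 of 40 (35%) and 12.9% of all windows held it. AGGTCA is not contained in the retinoic acid element as spelled. A match is a description of these letters and no evidence of binding.

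Retinoic acid is cleared by Cyp26a1 and Cyp26b1, and both had higher estimates in P. Cyp26a1 measured 6.80, 6.73, 6.68 and 6.76 in P 1 to P 4 and 6.24, 6.57 and 6.47 in NP 2 to NP 4 on the log2 scale. All 4 P rats lay above all 3 NP rats, but NP 2 was flagged near background. The difference was 0.31 ± 0.12 (SE, adjusted p = 0.382). It was 0.49 with normexp offset 16, 0.69 with plain background subtraction and 0.68 with the authors' values (adjusted p of 0.384 to 0.424). Cyp26b1, the form best known from brain, measured 9.73, 10.11, 9.90 and 9.55 in the P rats and 9.52, 9.55 and 9.52 in the NP rats. The lines did not overlap, yet the lowest P rat, P 4, lay at the level of the highest NP rat. Its difference was 0.29 ± 0.14 (adjusted p = 0.453).

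Family 1 enzymes oxidise aromatic hydrocarbons and are induced through the aryl hydrocarbon receptor (Ahr). Cyp1a1 measured 6.90, 6.90, 7.02 and 6.93 in P 1 to P 4 and 6.69, 6.79 and 6.15 in NP 2 to NP 4. The P rats lay close together and above every NP rat, and NP 4 stood apart at the low end. The difference was 0.40 ± 0.16 (adjusted p = 0.392). It was 0.20 without NP 4 and 0.16 with scan date as a block, a fit whose line difference rests on P 1, P 2, NP 2 and NP 3. In contrast, it was 0.61 with normexp offset 16, 0.84 with plain background subtraction and 0.81 with the authors' values. The adjusted p lay between 0.203 and 0.834 over all alternatives. Cyp1b1, known from vessels and meninges, measured 9.67, 9.67, 9.13 and 9.44 in P and 9.42, 9.39 and 9.23 in NP. P 3 was the lowest of all 7 rats while P 1 and P 2 were the highest, and the difference was 0.13 ± 0.15 (adjusted p = 0.734). It ranged from 0.07 (without P 1 or P 2, and 0.08 without NP 4) to 0.25 (without P 3) and was 0.27 with scan date as a block. Cyp1a2 was above background in 2 NP rats and no P rat and was not tested.

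Family 2, the largest here, had 21 genes, of which 20 were tested, with 13 higher and 7 lower estimates in P and a median difference of 0.07. Cyp2c22 measured 8.85, 8.99, 8.50 and 8.96 in P 1 to P 4 and 8.44, 8.36 and 8.31 in NP 2 to NP 4. No P rat fell to the level of an NP rat, and P 3 was the lowest of the P rats. The difference was 0.45 ± 0.14 (95% interval 0.14 to 0.76, adjusted p = 0.318), the largest of the 44 genes in this fit. With plain background subtraction it was 0.52, and among the genes followed through the alternatives Cyp1a1, Cyp26a1, Cyp2f4 and Cyp4f6 exceeded it. Cyp2a3 was not among the genes followed there. With the authors' values Cyp2c22 differed by 0.51, and Cyp2a3 was the highest of the 44 at 0.82. The other tested genes of the 2C subfamily differed by -0.06 to 0.11, and none of them had an unadjusted p under 0.05.

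Both Cyp2b12 and Cyp2f4, the latter known for bioactivation of toxicants in lung, also had non-overlapping values. Cyp2b12 measured 8.22, 8.36, 8.16 and 8.28 in P and 8.07, 8.09 and 7.90 in NP, a difference of 0.23 ± 0.11 (adjusted p = 0.453). Cyp2f4 measured 6.64, 6.82, 6.64 and 6.59 in P and 6.49, 6.52 and 6.15 in NP, where NP 4 was near background. Its difference was 0.29 ± 0.13 (adjusted p = 0.434), 0.17 without NP 4, 0.46 with normexp offset 16, 0.67 with plain background subtraction and 0.64 with the authors' values. Cyp2a3 was above background in 3 P rats and not well above background in any NP rat, so it entered the test through the P line alone. Its measured means were 6.45 in P and 6.17 in NP, and the 95% interval of the difference, -0.01 to 0.58, included 0 (adjusted p = 0.436). Cyp2j4, an arachidonic acid epoxygenase, measured 7.02, 6.79, 6.99 and 6.75 in P and 6.87, 6.88 and 7.08 in NP, and the lines overlapped (difference -0.06 ± 0.12, adjusted p = 0.871).

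In family 4, whose enzymes hydroxylate fatty acids and eicosanoids, 7 of 8 genes were tested, with 6 higher and 1 lower estimate in P. Cyp4f6 measured 7.79, 7.67, 7.46 and 7.92 in P and 7.57, 7.43 and 6.92 in NP. P 3 lay below NP 2, so the lines overlapped, and NP 4 was the lowest rat. The difference was 0.41 ± 0.17 (adjusted p = 0.418), 0.21 without NP 4 and 0.23 with scan date as a block. Cyp4f5 measured 8.65, 9.02, 8.99 and 8.86 in P and 8.70, 8.61 and 8.57 in NP, with P 1 below NP 2 (difference 0.26 ± 0.12, adjusted p = 0.454). Cyp4f4 lost P 1 and P 3 to outlier flags. It measured 6.25 and 6.47 in P 2 and P 4 and 6.51, 6.45 and 6.58 in NP, a difference of -0.15 ± 0.15 (adjusted p = 0.690), and P 2 was flagged near background. The difference was -0.04 without P 2, -0.26 without P 4, -0.26 with normexp offset 16, -0.38 with plain background subtraction, -0.36 with the authors' values and -0.23 with scan date as a block, none of them called.

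Of the genes for steroids and sterols, Cyp19a1, aromatase, which makes estrogens, measured 6.69, 6.62, 6.59 and 6.43 in P and 6.87, 6.62 and 6.28 in NP. NP 2 was the highest and NP 4 the lowest of all 7 rats, and the difference was -0.01 ± 0.15 (adjusted p = 0.982). Cyp11a1, the side-chain cleavage enzyme that starts steroid synthesis, was above background in P 1 and NP 4 only and was not tested. Cyp17a1, Cyp21a1 and Cyp11b1 act further along steroid synthesis. By the probe of highest signal they were above background on all 7 arrays and differed by 0.01, -0.04 and 0.13. Cyp27a1, the sterol 27-hydroxylase that turns cholesterol into an oxysterol, measured 8.57, 8.85, 8.82 and 8.57 in P and 8.18, 8.39 and 8.70 in NP, where only NP 4 reached the P range (difference 0.28 ± 0.15, adjusted p = 0.477). Without NP 2 it was 0.16, and with scan date as a block 0.42 (adjusted p = 0.124). Cyp7a1, which starts bile acid synthesis in liver, differed by -0.15 and Cyp8b1 was above background only in P 1.

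For vitamin D, Cyp27b1, which makes the active hormone, measured 9.12, 9.10, 8.25 and 8.64 in P and 8.81, 8.56 and 8.11 in NP. Both lines spread over more than the distance between their means (difference 0.29 ± 0.23, adjusted p = 0.631). Cyp24a1, which degrades the hormone, differed by -0.06. The family 3 genes, known from drug oxidation in liver, differed by -0.08 to 0.17 over the 4 tested, of which Cyp3a18 lacked P 4 for an outlier flag. Cyp20a1, a P450 with no known substrate, measured 8.54, 8.42, 8.48 and 8.67 in P and 8.51, 8.81 and 8.36 in NP (difference -0.04 ± 0.13, adjusted p = 0.933).

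**Figure D3:**
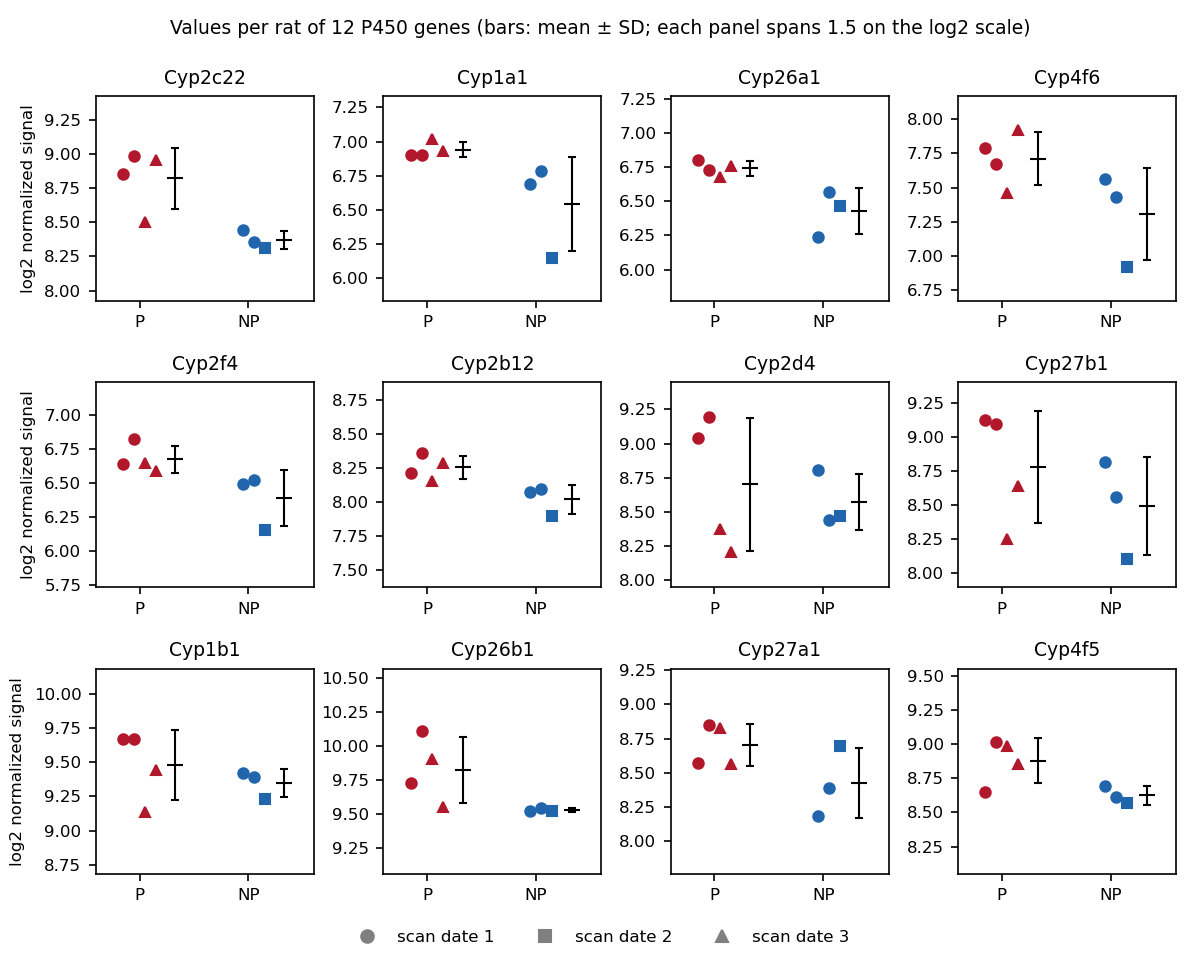
Log2 normalized signal of 12 P450 genes in each of the 4 P rats (red) and 3 NP rats (blue), with mean ± SD in black and the marker shape giving the scan date. Every panel spans 1.5 log2 units. The P rats of scan dates 1 and 3 separate most for Cyp2d4 and Cyp27b1, by less for Cyp1b1, and slightly in the other direction for Cyp1a1.

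The file headers give a date for each array, read here as its scan date, which bears on these values. Date 1 held NP 2, NP 3, P 1 and P 2, date 2 held NP 4 alone, and the P rats P 3 and P 4 belonged to date 3. For P 3, P 4 and NP 4 date and rat cannot be told apart. With scan date as a block the line difference therefore rests on P 1, P 2, NP 2 and NP 3 alone. Its estimates equal those within date 1, and P 3 and P 4 add only to the estimate of spread. Fitting scan date as a block, limma called 0 P450 genes (smallest adjusted p 0.0856), against 5.72% of all probes called. At an unadjusted p under 0.05 it found 7 of the 44, against 25.8% of all probes. Within date 1, with a pair of rats per line, 1 of the 44 genes was called, against 6.4% of all probes. It was Cyp2c22, higher in P by 0.52 ± 0.13 (adjusted p = 0.0480).

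Cyp2d4, the 2D form best known from rat brain, differed among the P rats. It measured 9.04 and 9.19 in P 1 and P 2, 8.37 and 8.20 in P 3 and P 4, and 8.81, 8.44 and 8.47 in NP 2 to NP 4. The NP rats lay between the 2 pairs of P rats. P 1 and P 2 exceeded P 3 and P 4 by 0.83 ± 0.16 (adjusted p = 0.00764), while the P minus NP difference was 0.13 ± 0.24 (adjusted p = 0.840, and 0.49 with scan date as a block, adjusted p = 0.0856). The call between the pairs was lost with plain background subtraction (0.95, adjusted p = 0.0505), with the authors' values (0.91, adjusted p = 0.0526) and without P 2 (0.75, adjusted p = 0.0817), where P 1 alone stands for its pair and is taken to vary like the other groups. Cyp2d4 was the only P450 gene called between the P pairs, 1 of 44 (2.27%) against 14% of all probes. Next came Cyp2t1 with 0.48 (adjusted p = 0.0540) and Cyp27b1 with 0.66 (adjusted p = 0.0560), neither called. Of the 44 genes 33 had the higher mean in P 1 and P 2 and 11 in P 3 and P 4, with a median of 0.13 against 0.03 over all probes. The other 2D genes differed between the P pairs by -0.02 (Cyp2d1), 0.11 (Cyp2d2) and 0.37 (Cyp2d3), none of them called. Probes of such closely related genes can hybridise to more than 1 of their transcripts, which these files do not resolve.

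**Figure D4:**
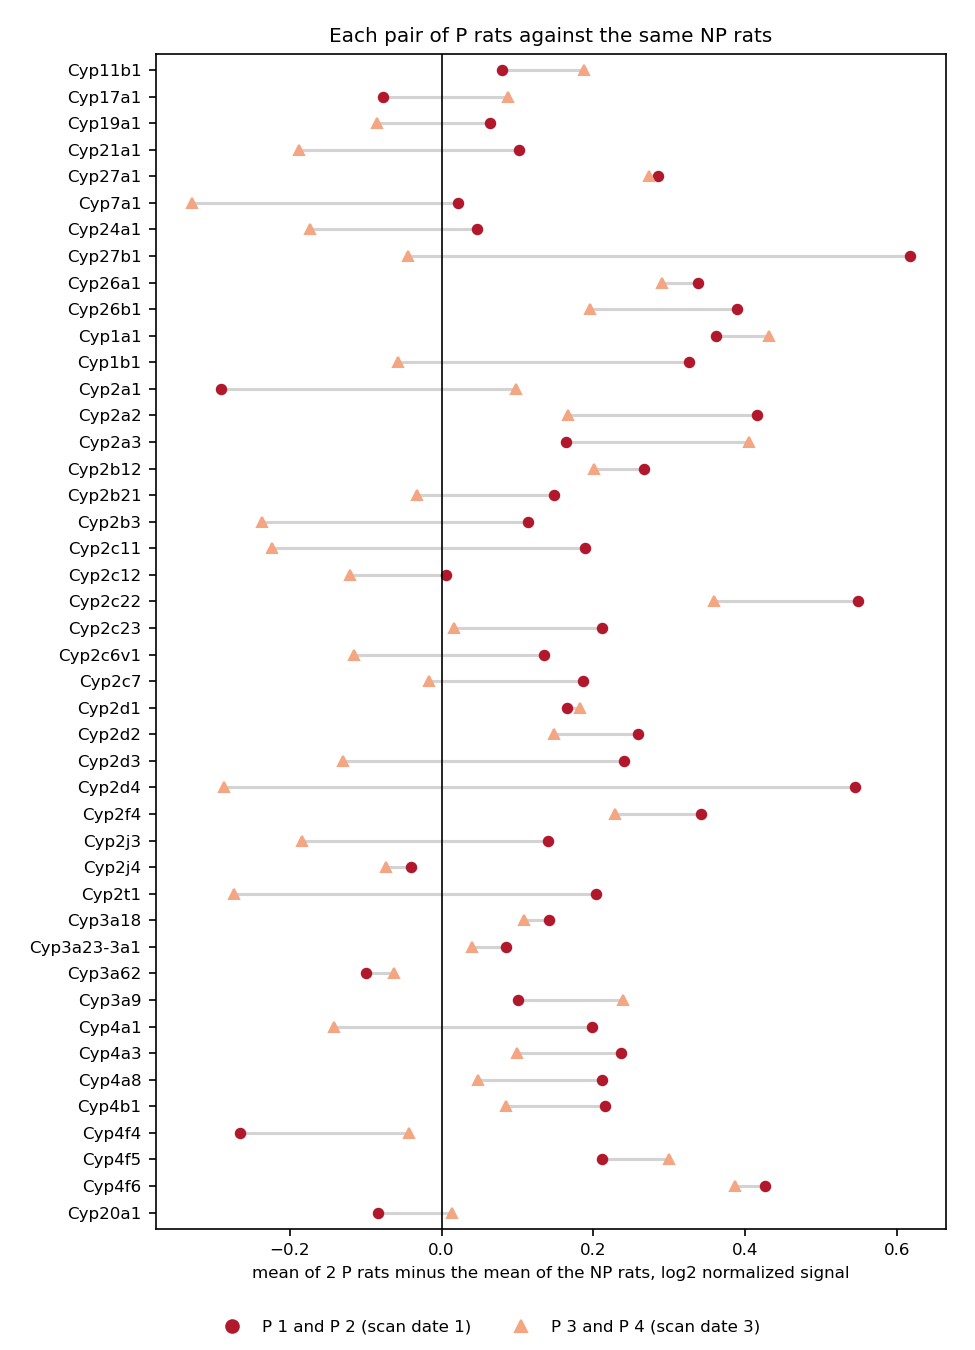
Mean of P 1 and P 2 (circles) and of P 3 and P 4 (triangles) minus the mean of the same 3 NP rats, on the log2 scale, for the 44 tested P450 genes. The widest gap between the pairs is that of Cyp2d4 at 0.83, followed by Cyp27b1 at 0.66.

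Probes of the same gene did not always move alike. For 9 genes there were 11 further probes, 9 of them tested, and 6 of these 9 had the same sign as the probe with the highest signal. The second probe of Cyp2b12 measured 6.54, 6.59, 6.49 and 6.62 in P 1 to P 4 and 6.38, 6.31 and 6.00 in NP 2 to NP 4, again without overlap. It differed by 0.33 ± 0.13 (adjusted p = 0.384), in the direction of the first. However, it was above background in only 2 NP rats, and its NP values lay close to the median of the negative control spots. The second probe of Cyp26b1 differed by 0.21 ± 0.25 over all rats, where P 4 was lowest at 8.68, and by 0.66 within scan date 1 (adjusted p = 0.0275). The faintest probe of Cyp3a23-3a1 differed by 0.57 within date 1 (adjusted p = 0.0409), while the brightest probe of that gene differed there by -0.13. That faintest probe was above background in only 2 P rats and 1 NP rat, and measured 5.86 and 5.85 in NP 2 and NP 3. The 3 probes of Cyp4a8 differed between the lines by 0.13, 0.14 and -0.28 (adjusted p = 0.728, 0.786 and 0.411), and the second of them differed between the P pairs by 0.59 (adjusted p = 0.0303), the first by 0.16. Second probes of Cyp17a1 and Cyp4a3 had lower estimates in P (-0.23 and -0.18) where the first had higher ones (0.01 and 0.17). The level of Cyp17a1 also depended on the probe, with 9.56 to 9.98 over the rats for the first and 6.03 to 6.72 for the second. The further probes of Cyp11b1 and Cyp19a1 were near background on most or all arrays and were not tested.

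**Figure D5:**
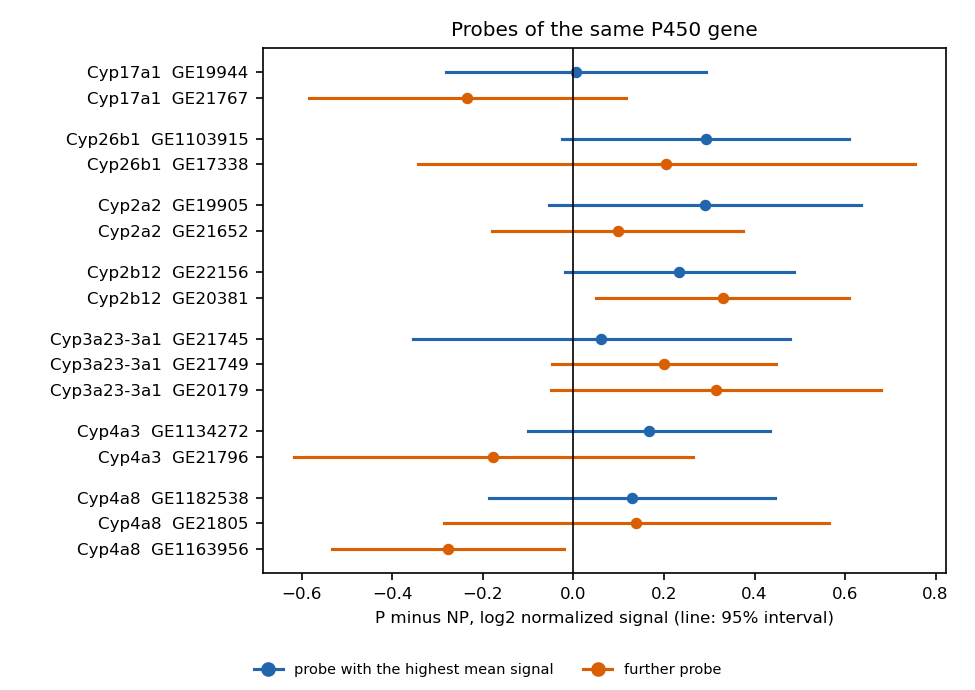
P minus NP difference on the log2 scale with its 95% interval for each tested probe of the 7 P450 genes that have several tested probes, with the probe of highest mean signal in blue and further probes in orange. The probes of Cyp2b12 lie on the same side of 0, and those of Cyp4a8 on both sides.

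Genes that serve the P450 enzymes were likewise not called between the lines, with 0 calls in each of 5 lists by limma. Of 9 tested electron donors and partners 4 had the higher mean in P and 5 in NP, with a median of -0.02. An unadjusted p under 0.05 was found for 1 of the 9, against 11.5% of all tested probes. That was cytochrome b5 (Cyb5a), which passes electrons to several P450 enzymes. It measured 9.59, 9.72, 9.96 and 9.79 in P and 10.06, 10.30 and 10.42 in NP, so that every P rat lay below every NP rat (difference -0.50 ± 0.13, adjusted p = 0.277). The reductase Por differed by 0.25 ± 0.18 (adjusted p = 0.578). Of 16 nuclear receptors and other regulators 13 had the higher mean in P and 3 in NP, none had an unadjusted p under 0.05, and the smallest p was that of Ahr (0.35 ± 0.17, adjusted p = 0.460). Between the P pairs 3 of the 16 were called, a share near the 14% of all probes. These were Rara (0.54), Rxrb (0.72) and Rxrg (0.53), all higher in P 1 and P 2 (adjusted p = 0.0400, 0.0314 and 0.0450), while Rxra differed by -0.20 and was not called.

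Of 7 tested genes of heme supply and breakdown 5 had the higher mean in P and 2 in NP. An unadjusted p under 0.05 was found for 3 of the 7, against 11.5% of all tested probes. With so few genes the share is not read as differing from that background. The 3 went both ways: Uros differed by 0.33 ± 0.15 (adjusted p = 0.428) and Hmox1 by -0.37 ± 0.16 (adjusted p = 0.418). The smallest p was that of Blvra, which reduces biliverdin, at -0.41 ± 0.13 (adjusted p = 0.318). Among 5 other P450 and downstream genes, of which 2 had the higher mean in P and 3 in NP and whose smallest p was that of Ephx1 (0.30 ± 0.14, adjusted p = 0.434), Cyp51, the sterol demethylase of cholesterol synthesis, differed by -0.27 ± 0.21 over all rats (adjusted p = 0.630). The scan date block, which sets P 1 and P 2 against NP 2 and NP 3, gave a difference of -0.70 (adjusted p = 0.0409). The mean of P 1 and P 2 minus that of P 3 and P 4 was -0.66 (adjusted p = 0.0334). Of 9 tested steroid partners 7 had the higher mean in P and 2 in NP, with the smallest p for Hsd11b1 at -0.22 ± 0.15 (adjusted p = 0.549).

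Markers of brain cells were detected, and no marker list held a call between the lines by limma. At an unadjusted p under 0.05 a list held 0 to 2 members, where 11.5% of all tested probes had such a p. With scan date as a block, thus between P 1 and P 2 and NP 2 and NP 3, 4 markers were called, where 5.72% of all probes were. Lower in P were the microglia marker Aif1 (-1.23, adjusted p = 0.0155) and the endothelial Abcb1a (-0.73, adjusted p = 0.0354) and Slco1a4 (-0.63, adjusted p = 0.0429). The meninges marker Aldh1a2 (0.60, adjusted p = 0.0396) was higher. Other members of these lists were not called. They ranged from -0.16 (C1qa) to 0.29 (Itgam) for microglia and from -0.20 (Flt1) to 0.53 (Pdgfrb) for endothelium and pericytes. For meninges they ranged from -0.07 (Dcn) to 0.57 (Slc22a6). Above background on all 7 arrays were 7 of 7 astrocyte, 5 of 6 oligodendrocyte, 7 of 7 microglia, 3 of 5 neuron, 4 of 5 endothelial and pericyte, 5 of 5 meninges, 5 of 6 choroid plexus, 3 of 3 erythroid and 2 of 3 pituitary and pineal markers with a probe. Of 10 liver markers with a probe 4 were above background on all 7 arrays and 1 on none, and their summed normalized signal on the linear scale was 1506 to 1677 in P and 1363 to 1620 in NP. The summed meninges markers ranged from 5874 to 6603 in P and from 5030 to 5924 in NP, and lay at 6590 to 6603 in P 1 and P 2 against 5874 to 5928 in P 3 and P 4. Between the P pairs, where 14% of all probes were called, some single markers were too. Higher in P 1 and P 2 were Syn1 of neurons (1.26), Pdgfrb of pericytes (0.89), Aldh1a2 of meninges (0.85) and Aldh1l1 of astrocytes (0.56). Lower there were Aif1 of microglia (-0.75) and Slco1a4 of endothelium (-0.72). Uncalled markers of the same lists did not all follow. They ranged from -0.01 (Uchl1) to 0.40 (Snap25) for neurons and from -0.48 (Aqp4) to 0.71 (Gfap) for astrocytes. The Snap25 probe was above background in only 1 P rat and 2 NP rats. For meninges the range was -0.23 (Dcn) to 0.34 (Col1a2), and for microglia -0.05 (C1qa) to 0.43 (Itgam). For endothelium and pericytes it was -0.51 (Abcb1a) to 0.24 (Cldn5). The part of these markers in the P450 values was not tested. In whole brain, fewer cells of a type and less RNA per cell cannot be told apart.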

How the data were processed

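Per the file headers, the deposited scanner tables give the mean intensity of each spot, the median intensity of its local background and a quality flag. A deposited table of the authors' log2 values served as an alternative. Its columns followed the log2 of each array's scaled intensity (r of 0.9986 or higher, medians -0.07 to 0.05), and its normalization between arrays is unknown. The scanner software and build were not given in the sources used here.

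In limma 3.58.1 (R 4.3.3), all spots were background-corrected by normexp with offset 50, and log2 values of the 33849 transcript probes were quantile normalized. Masked, irregular and contaminated spots were dropped before normalization, and saturated ones stayed in. Probes above background on at least 3 of 7 arrays (29008) were kept, of which 29003 could be fitted. P was tested against NP by lmFit and eBayes with Benjamini-Hochberg adjustment over these probes, and differences are P minus NP in log2 unless stated otherwise.

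Names came from RefSeq transcripts (GRCr8), matched to the unversioned probe accessions, for 7207 probes. Groups and replicate numbers came from the sample titles.

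Genes given by rat were those with an unadjusted p under 0.05 between the lines and those called in a scan date fit. Added to these were genes whose lines did not overlap and, where a probe named them, brain P450 genes known from textbooks. Cyp2d4 is one of the latter, and Cyp27b1, Cyp2a3 and the further probes were singled out after their values were seen. The members and lists were chosen with earlier results of these data known. The alternatives changed the background correction, scaling, filter or variance model, or used array weights, the authors' values, blocks by scan date or replicate number, other detection limits, the mean of a gene's probes, and each array left out. Those with only P 1 and P 2 or only P 3 and P 4 in the P line were chosen after seeing the data. Tested on simulated data for 29003 probes, the fit made calls of which 4.62% were false. The number of arrays limits the precision. Figures were drawn with matplotlib 3.10.9.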

Additional observations from a re-analysis of the deposited data

Results flagged for a closer look

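Cyp4a3, a fatty acid hydroxylase, measured 7.78 in P 3 on the log2 scale, while the other 3 P rats lay between 8.05 and 8.10. P 3 was singled out by its gap to the nearest P rat relative to the range of the line. Of 42 sets of 4 P values examined in this way 1 stood out, and chance gives about 2.1. The second probe of Cyp4a3 was also lowest in P 3, at 5.84 against 6.57 to 6.73 in the other P rats.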

How the results depend on the processing

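The count of 0 P450 genes called between the lines held under the other background corrections, scalings, filters, variance models, array weights, the authors' values, the scan date block and each array left out. It became 1 within scan date 1 (Cyp2c22) and 2 with only P 1 and P 2 in the P line (Cyp2c22 and Cyp2d4). With scan date as a block and an array left out it was 0 to 1, and 1 without P 3 or without P 4. With the replicate number as a block (replicate block, 3 pairs) 0 P450 genes and 102 probes were called. The titles give same-numbered rats no link beyond the number. Their deviations from the line means correlated at 0.10, 0.06 and 0.02, and not every rat correlated best with its own number. With 3 such pairs these values cannot decide whether the rats were paired. Of all probes, 84 were called with all 7 arrays, 51 with the authors' values, 49 among probes above background on all 7 arrays, 151 with array weights, 1655 with scan date as a block, 1847 within date 1, 189 with only P 3 and P 4, 3310 with only P 1 and P 2, and 51 to 121 with an array left out (53 without NP 3 and 51 without NP 4).

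Between the P pairs the 1 called P450 gene became 0 with plain background subtraction, 2 with no background correction, 6 with median centring, 0 with the authors' values, 3 among probes above background on all 7 arrays, 2 with the intensity-dependent variance prior, 3 with array weights and 0 to 2 with an array left out (0 without P 2, and 2 without NP 2, NP 4 or P 4). Cyp2d4 itself stayed between 0.75 and 0.91 with an array left out. Faint genes depended on the background correction: with plain subtraction and with the authors' values Cyp1a1 was 0.84 and 0.81, Cyp26a1 0.69 and 0.68, Cyp2f4 0.67 and 0.64 and Cyp4f4 -0.38 and -0.36, against 0.40, 0.31, 0.29 and -0.15 with normexp offset 50, and 12 intervals instead of 0 reached 2-fold. Some small differences changed sign. Cyp19a1 was 0.021 with subtraction, 0.064 with only P 1 and P 2 and -0.17 to 0.13 with an array left out. Cyp2j4 was 0.027 with scan date as a block and within date 1, and -0.10 to 0.011 with an array left out. Cyp20a1 was 0.013 with only P 3 and P 4 and -0.13 to 0.090 with an array left out. Cyp2d4 was -0.29 with only P 3 and P 4 and -0.034 to 0.30 with an array left out, and Cyp1b1 was -0.058 with only P 3 and P 4. With the 95th percentile of the negative controls as the limit, 20 genes lay above it on all arrays, 19 on none, and the share of genes above it was higher in P by 6 percentage points. The cause of these changes was not tested.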
